A study of Mus musculus with 8 samples.

Results

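Glycolysis, the tricarboxylic acid (TCA) cycle, nutrient uptake and mTOR growth signalling are represented here by a list of 44 mouse genes, chosen by name from 21887 protein-coding genes, and described by their 5-hydroxymethylcytosine (5hmC). The cells were germinal center B cells from spleens of C57BL/6 mice, either knockout (KO) or wild type (WT) for TET2. DNA carrying 5hmC was immunoprecipitated and sequenced (hMeDIP-seq), and peaks were called in 2 KO libraries and 2 WT libraries, numbered 2 and 3 within each genotype. The labels give neither the knockout allele nor the age and sex of the animals, and they do not say whether libraries came from separate animals, so the p-values measure only the spread between these libraries. The 4 input libraries were not analysed here.

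TET2 oxidizes 5-methylcytosine to 5hmC and uses α-ketoglutarate, a TCA cycle intermediate, as a cosubstrate, while succinate, fumarate and 2-hydroxyglutarate inhibit enzymes of this class. Germinal center B cells divide rapidly, and MYC and mTOR complex 1 drive the uptake of glucose and amino acids that growth requires. In many cell types 5hmC lies along gene bodies and is low at CpG-rich start sites. Peaks of 5hmC do not read expression, so nothing here says how much RNA or protein any of these genes made.

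Each gene was read in its span plus 2 kb on each side (GRCm38). The measure of a gene in a library is the number of bases under called peaks, scaled so that all libraries have the same total of covered bases. KO libraries had 280413 and 279546 peaks and WT libraries 270542 and 300950, over 137.0 and 110.6 Mb in KO and 124.8 and 139.3 Mb in WT. Per peak, KO replicate 3 therefore covered the fewest bases, and its median fold enrichment, 4.38, was also the lowest of the 4. The 10 B cell marker genes all had peaks in every library, with a median of 23.5% of the window under peaks. That median was 8.06% for 6 T cell markers and 5.45% for 5 myeloid markers, and 5hmC at these genes does not measure their expression. Over the B cell list peaks covered 15.96% and 11.6% in KO, against 17.0% and 15.3% in WT. The T cell list had 6.43% and 4.70% in KO, against 5.90% and 7.46% in WT. For the myeloid list it was 9.19% and 7.04% in KO, against 8.66% and 9.18% in WT. KO replicate 3 was thus the lowest library in each list. Whether cell makeup played a part in any result was not tested, and in bulk samples fewer cells of a type and less 5hmC per cell cannot be told apart. Peak lists also cannot check the loss of Tet2 itself.

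The growth genes carried about as much 5hmC per length as other genes. Peaks covered 5.07% and 4.01% of their windows in KO libraries and 4.83% and 5.08% in WT libraries, and over all genes 5.14% and 4.09% in KO, against 4.80% and 5.22% in WT. Peaks of any library occurred at 42 of the 44 genes. Aldoc and Tpi1, which encode aldolase C and triosephosphate isomerase, had no peak in any library. Coverage per length was highest in Pfkfb3, which makes the activator of phosphofructokinase, with a mean of 11.9% of the window, followed by Max at 9.27% and D2hgdh at 7.96%. Among genes with peaks it was lowest in Ldhb (0.746%), Slc7a5 (1.07%) and Sdha (1.21%). The median over the list was 3.98%, against 3.93% over all genes.

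**Figure D1:**
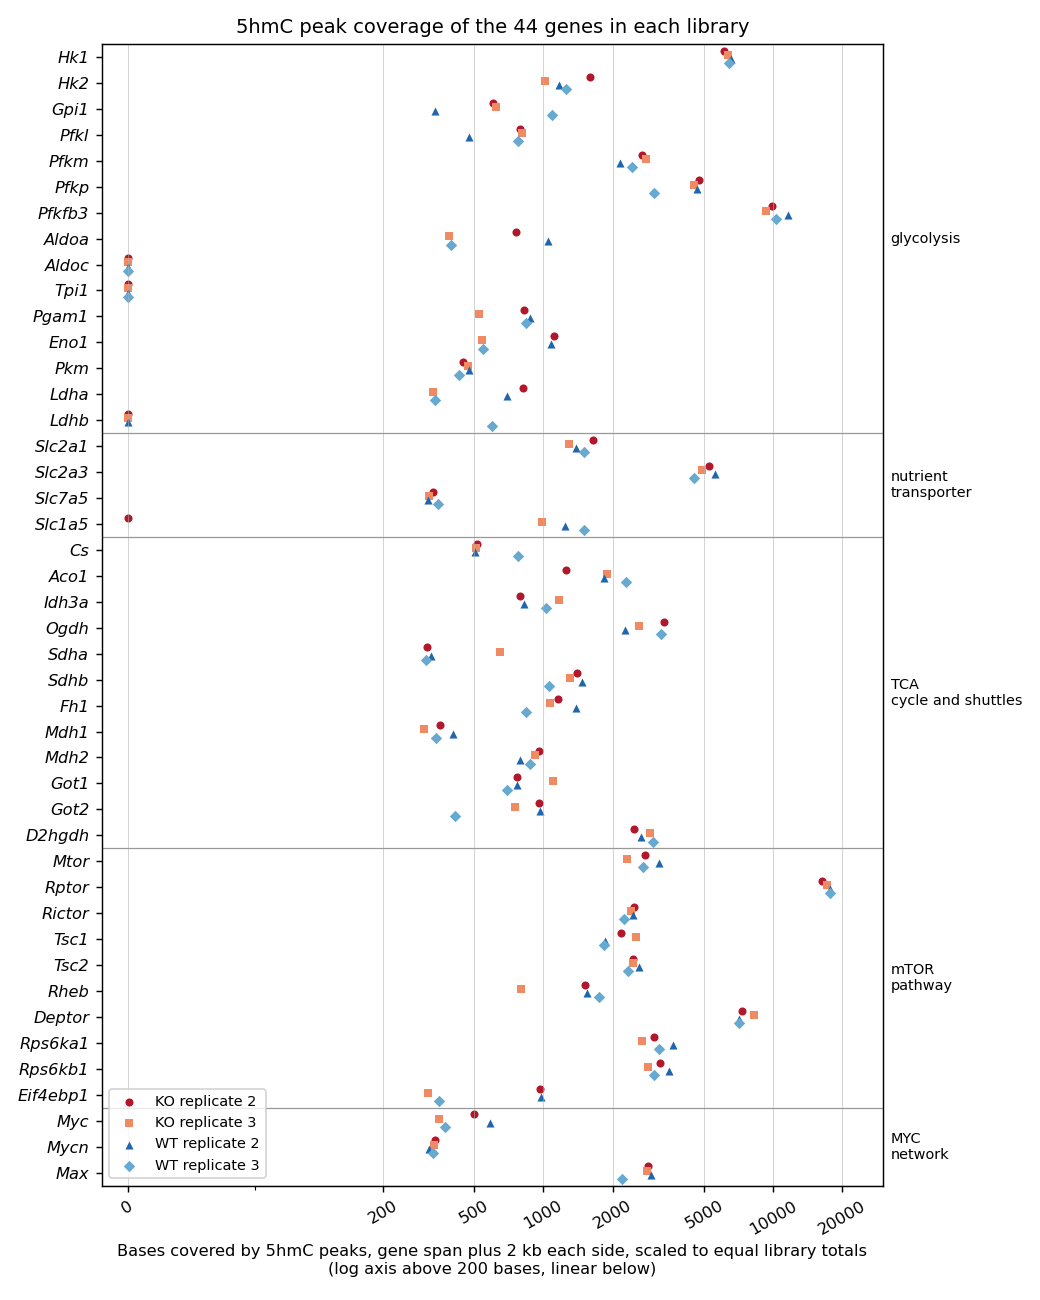
Bases under 5hmC peaks in the window of each of the 44 genes, scaled to equal library totals, with 1 point per library (KO replicates 2 and 3, WT replicates 2 and 3) on an axis that is logarithmic above 200 bases. KO and WT points intermix at most genes, Aldoc and Tpi1 sit at 0 in all libraries, and Slc1a5 sits at 0 in KO replicate 2 alone.

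Start sites were mostly free of peaks. RefSeq (GRCm38.p6) gave windows from 250 bases before to 50 after a start for 37 of the 44 genes, 56 windows in all. A peak of any library overlapped 5 of these windows, at 4 genes: Pkm, Ogdh (at overlapping windows), Mycn and, by 7 bases in KO replicate 2 alone, Pfkl. Over all genes with such windows, 9.03% had a peak in at least 1 window, and 8.22% of windows had one. The members' windows held a median of 20 CpG dinucleotides, against 13 over all genes. A peak of any library overlapped 4 of 40 windows (10%) with a ratio of observed to expected CpG of at least 0.6, against 7.01% over all genes. Of windows below that ratio, 1 of 16 had one (6.25%, against 9.32% over all genes). The following windows show starts with and without a peak at Pkm and Ogdh, and the start of Mycn. Bases under peaks of all 4 libraries are in capitals, 5′ to 3′ along the gene.

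Pkm, inner start (chr9:59656977-59657276, + strand): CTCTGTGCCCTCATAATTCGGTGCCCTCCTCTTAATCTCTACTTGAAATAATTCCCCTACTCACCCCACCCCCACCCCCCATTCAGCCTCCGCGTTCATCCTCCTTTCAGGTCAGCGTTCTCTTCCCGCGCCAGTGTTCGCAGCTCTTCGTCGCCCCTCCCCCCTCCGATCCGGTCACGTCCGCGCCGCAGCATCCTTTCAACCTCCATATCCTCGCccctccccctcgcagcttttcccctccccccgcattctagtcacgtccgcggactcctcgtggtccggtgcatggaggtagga
Pkm, outermost start (chr9:59656326-59656625, + strand): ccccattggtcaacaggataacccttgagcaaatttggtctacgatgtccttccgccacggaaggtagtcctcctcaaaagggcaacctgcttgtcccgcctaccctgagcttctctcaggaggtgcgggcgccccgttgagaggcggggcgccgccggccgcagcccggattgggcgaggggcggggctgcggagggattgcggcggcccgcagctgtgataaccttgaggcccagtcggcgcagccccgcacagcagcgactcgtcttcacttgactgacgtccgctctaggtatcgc
Mycn (chr12:12941787-12942086, - strand): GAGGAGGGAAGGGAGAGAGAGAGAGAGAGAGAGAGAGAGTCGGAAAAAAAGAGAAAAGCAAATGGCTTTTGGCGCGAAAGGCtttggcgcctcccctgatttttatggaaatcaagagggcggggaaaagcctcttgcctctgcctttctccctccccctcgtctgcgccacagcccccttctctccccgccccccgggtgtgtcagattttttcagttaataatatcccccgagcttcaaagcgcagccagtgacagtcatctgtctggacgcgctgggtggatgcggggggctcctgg
Ogdh, inner start (chr11:6292329-6292628, + strand): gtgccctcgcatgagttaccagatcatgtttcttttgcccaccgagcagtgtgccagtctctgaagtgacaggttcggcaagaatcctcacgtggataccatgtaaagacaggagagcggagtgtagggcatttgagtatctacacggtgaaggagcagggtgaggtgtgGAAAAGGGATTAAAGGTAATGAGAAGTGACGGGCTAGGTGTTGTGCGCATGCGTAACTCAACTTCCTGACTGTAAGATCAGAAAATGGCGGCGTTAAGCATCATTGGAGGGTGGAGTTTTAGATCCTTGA
Ogdh, CpG-rich start (chr11:6291920-6292219, + strand): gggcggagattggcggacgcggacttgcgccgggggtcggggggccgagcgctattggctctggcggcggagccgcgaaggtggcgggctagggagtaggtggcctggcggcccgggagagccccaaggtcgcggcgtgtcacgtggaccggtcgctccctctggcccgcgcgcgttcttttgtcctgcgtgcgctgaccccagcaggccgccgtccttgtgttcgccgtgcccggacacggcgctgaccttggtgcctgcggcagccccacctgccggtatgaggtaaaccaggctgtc

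At Pkm, the pyruvate kinase gene, the outermost start has 27 CpGs and no peak, while the inner start, with 23 CpGs, had 300 and 217 of its 300 bases under a peak in KO, against 284 and 265 in WT. It is the gene's only peak region, and peaks covered 445 and 469.6 scaled bases of the Pkm window in KO, against 474 and 429 in WT. At Ogdh, a subunit gene of the α-ketoglutarate dehydrogenase complex, the window with 37 CpGs lacked a peak, and the inner start with 11 CpGs had 192 and 130 bases covered in KO, against 147 and 154 in WT. Mycn, a MYC family gene, had its only peak at its start, over 111 and 125 bases of the window in KO, against 82 and 138 in WT. These peaks were therefore present in both genotypes, in all 4 libraries.

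The E-box CACGTG, the sequence MYC and MAX dimers prefer and the same on both strands, was found in 8 of the 56 windows (14.3%), against 7.84% of windows over all genes. The members' windows are richer in CpG, and the E-box contains one. Whether CpG content played a part in the difference was not tested. Among windows with a ratio of observed to expected CpG of at least 0.6, 7 of 40 had it (17.5%), against 11.4% over all genes. Below that ratio it was 1 of 16 (6.25%), against 4.59%. Some windows of a gene overlap and share a match. Ldha, the lactate dehydrogenase A gene, had matches at 2 places in a window with 30 CpGs and no peak, shown with the E-boxes in capitals.

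Ldha (chr7:46845554-46845853, + strand): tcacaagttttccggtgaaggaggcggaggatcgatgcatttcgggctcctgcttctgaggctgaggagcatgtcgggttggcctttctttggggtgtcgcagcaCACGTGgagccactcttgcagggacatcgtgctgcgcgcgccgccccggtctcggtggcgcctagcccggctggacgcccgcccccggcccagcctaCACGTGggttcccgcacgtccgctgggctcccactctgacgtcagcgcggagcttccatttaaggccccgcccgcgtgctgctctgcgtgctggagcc

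Coverage in the 1 kb centred on the outermost start was 3.13% and 2.01% in KO, against 3.09% and 3.35% in WT. Over all genes it was 3.96% and 2.91% in KO libraries and 3.64% and 4.06% in WT libraries. From 0.5 to 2 kb inside the gene it was 10.7% and 7.61% in KO, against 8.64% and 7.62% in WT, where all genes had 6.12% and 4.68% in KO, against 5.88% and 6.04% in WT. Peaks in that stretch came from 12 and 11 of the 37 genes in KO, against 11 and 9 in WT. Over all genes they came from 3418 and 3081 of 17385 in KO, against 3452 and 3568 in WT. Beyond 2 kb and up to 15 kb the members' coverage lay at 5.57% and 4.32% in KO, against 5.39% and 5.08% in WT. All genes reaching that far had 5.88% and 4.55% in KO libraries and 5.60% and 5.93% in WT libraries. Members were also above all genes from 5 to 0.5 kb upstream of the start. Coverage there was 7.91% and 5.58% in KO, against 7.45% and 6.99% in WT, where all genes had 6.52% and 5.14% in KO, against 6.11% and 6.65% in WT.

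**Figure D2:**
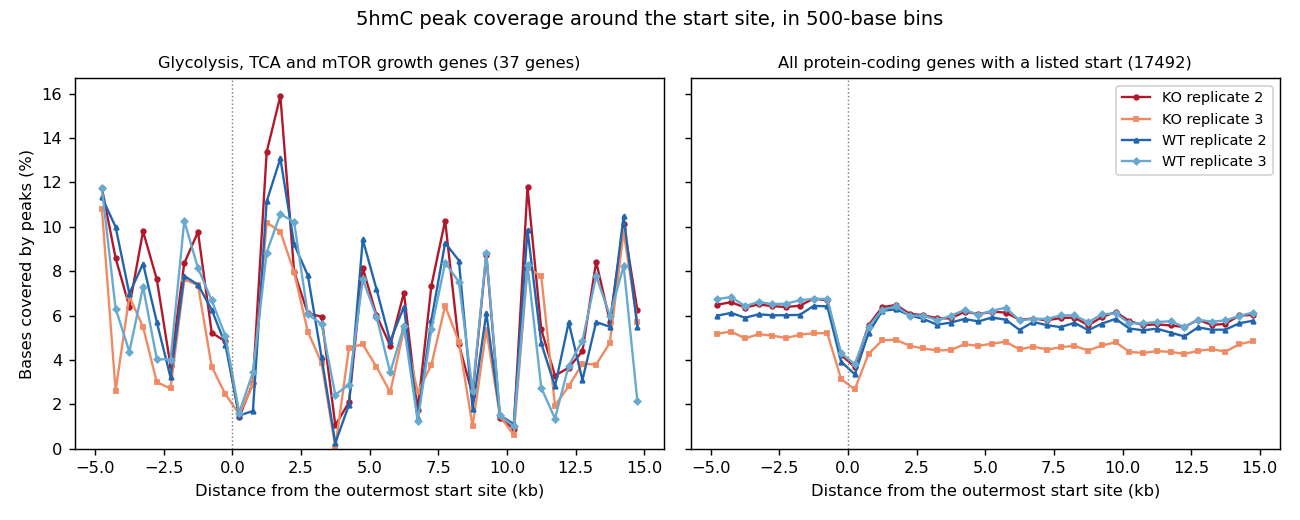
Percent of bases under 5hmC peaks by distance from the outermost start site, in bins of 500 bases, for 37 of the growth genes (left) and 17492 genes (right), with 1 line per library. Over all genes every library dips next to the start. The left panel is uneven: coverage in the bin after the start is 1.43% to 1.63% across the libraries, some bins further inside are as low, and the highest bin lies 1.5 to 2 kb inside the gene in replicate 2 of both genotypes but at the upstream edge in replicate 3 of both.

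In the comparison of KO with WT, no gene of the list passed. Of the 44, 35 had a mean of at least 500 scaled bases and were tested; the other 9 were Aldoc, Tpi1, Pkm, Ldhb, Slc7a5, Sdha, Mdh1, Myc and Mycn. In limma, fitted on log2(scaled bases + 200) over 13998 genes, 0 of the 35 had an adjusted p under 0.05 and 0 an unadjusted p under 0.05. The shares over all genes were 0% for adjusted calls in each direction and 4.22% for unadjusted p. The log2 change, KO minus WT, was above 0 for 19 members and below 0 for 16, with a median of 0.01, against -0.01 over all genes tested. Both KO libraries lay below both WT libraries for 7 of the 35 (20%), where 16.6% of all genes did, and above both for 5 (14.3%), where 14% did. Both shares are near those of all genes. The limma adjusted p of each of the 35 tested members rounded to 1.0.

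**Figure D3:**
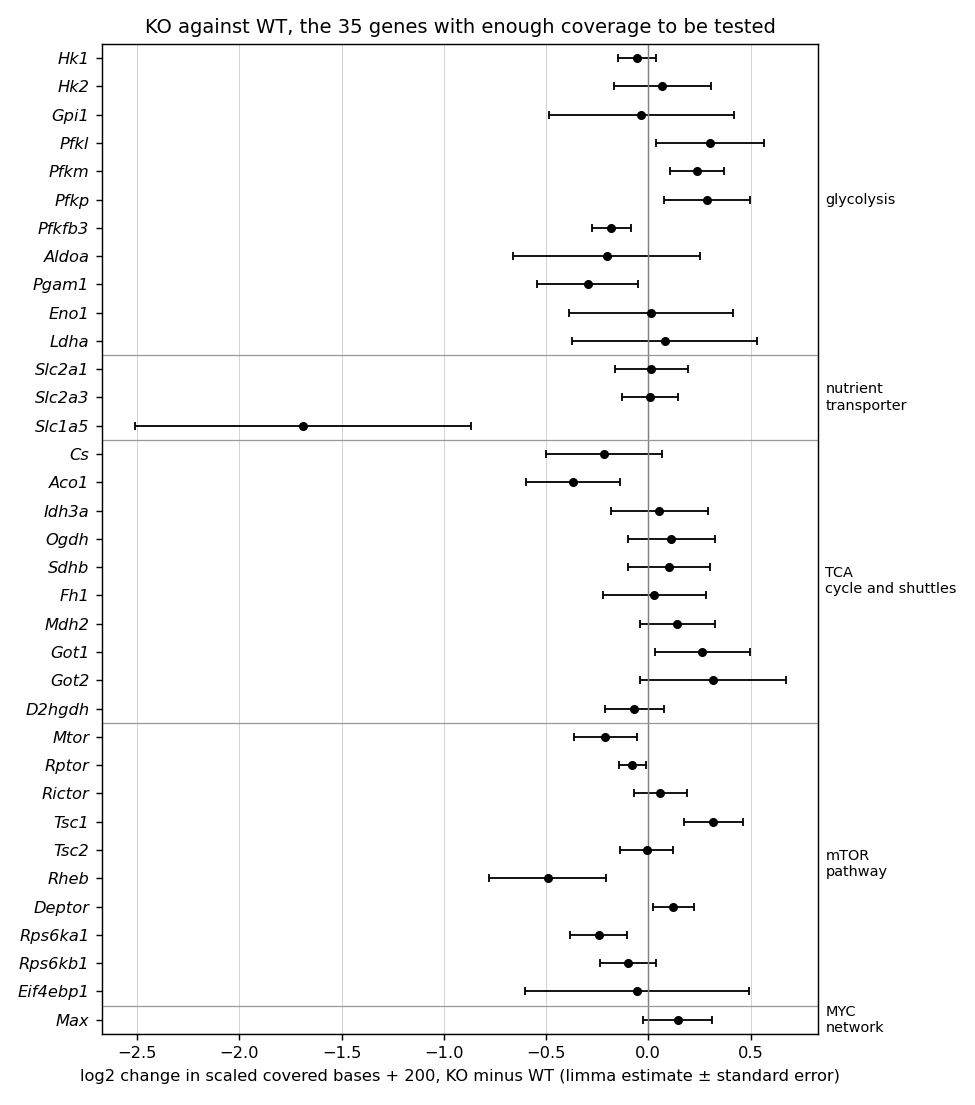
The limma log2 change, KO minus WT, in scaled covered bases + 200 for the 35 tested genes, with standard errors from 2 KO and 2 WT libraries. All estimates but those of Slc1a5 (-1.69, with the widest error bar) and Rheb (-0.49) lie within 0.4 of 0.

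The opening steps of glycolysis start with the hexokinases, which trap glucose as its phosphate. Hk1 (chromosome 10, 62268855 to 62379920) had 6094 and 6383 scaled bases in KO, against 6544 and 6423 in WT, spread over 17 regions of merged peaks. Hk2, the isoform that growing cells induce, had 1599.7 and 1012 bases in KO, against 1171 and 1249.6 in WT, so its KO libraries lay on either side of the WT ones. Gpi1, the glucose phosphate isomerase gene, ranged from 336 to 1094 bases, and both ends were WT libraries. Phosphofructokinase, the committed step, has a muscle, a liver and a platelet isoform. Pfkm (chromosome 15, 98092589 to 98132447) had 2699.8 and 2785 bases in KO, against 2153 and 2442 in WT. Both KO libraries were above both WT libraries, but the log2 change of 0.24 (standard error 0.13) had a limma adjusted p of 1.0. When peaks under 5-fold enrichment were left out, it had the opposite sign (-1.48). In KO replicate 3, however, the strongest Pfkm peak had 4.38-fold enrichment, under that cutoff. The cutoff kept 144990 and 100175 peaks in KO, against 159906 and 144225 in WT. Pfkl, like Pfkm, was above in both KO libraries, with 793 and 807 bases against 475 and 777 in WT.

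Pfkp (chromosome 13, 6579874 to 6649060) had 4762 and 4524 bases in KO, against 4671 and 3035 in WT, a log2 change of 0.29 (standard error 0.21, limma adjusted p = 1.0). The difference rested on WT replicate 3: without it the log2 change was -0.01, and when peaks under 5-fold enrichment were left out it was -0.70. Pfkfb3 (chromosome 2, 11471430 to 11554071), the best covered member per length, had 9884 and 9327 bases in KO, against 11604 and 10255 in WT. Both KO libraries lay below both WT libraries by a small margin, with a log2 change of -0.18 (standard error 0.10, limma adjusted p = 1.0) and of 0.07 when peaks under 5-fold enrichment were left out.

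The later part of glycolysis, from aldolase to lactate, consists of short genes with 0 to 2 peak regions each. For Aldoa, Eno1 and Ldha, singled out after their values were seen, coverage sorted by library number and not by genotype. Aldoa (aldolase A) had 757 and 389 scaled bases in KO, against 1052 and 397 in WT. Eno1 (enolase) had 1115 and 538 in KO, against 1079.6 and 546 in WT, and Ldha 819 and 329.6 in KO, against 696 and 339 in WT. In each of them replicate 2 of both genotypes stood above replicate 3 of both, with 2 peaks in each replicate 2 library and 1 in each replicate 3 library. Other members, such as Slc2a3, Fh1 and Got2, had the same order in scaled bases, and Idh3a and D2hgdh had the reverse. The share of all genes in this order was not counted. Over all tested genes, deviations of same-numbered libraries from their genotype means correlated by 0.09. Pgam1, the phosphoglycerate mutase gene, had 819.9 and 525 bases in KO, below both WT values of 876 and 838. Ldhb, the lactate dehydrogenase B gene, had peaks in WT replicate 3 alone.

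Transporters bring in the fuel. Slc2a3, the glucose transporter gene GLUT3 (chromosome 6, 122727809 to 122802363), had 5241 and 4914 scaled bases in KO, against 5606 and 4528 in WT. Slc2a1, which encodes GLUT1, had 1649 and 1291 bases in KO, against 1390.2 and 1498 in WT, and both genotypes overlapped at both genes. Slc1a5, a glutamine transporter gene (chromosome 7, 16781334 to 16798274), had no peak in KO replicate 2 and 988 bases in KO replicate 3, against 1247 and 1507 in WT. Its log2 change of -1.69 was the largest among tested members, but its standard error was 0.82 and its limma adjusted p 1.0, and the strongest peak in any library had only 3.93-fold enrichment. Without KO replicate 2 the log2 change was -0.40 and without KO replicate 3 it was -3.03, and it was -2.64 with 50 added to the bases and -0.75 with 1000 added. Slc7a5, the leucine transporter gene LAT1, had a single weak region in all libraries, with 331 and 317 bases in KO, against 315 and 346 in WT.

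In the TCA cycle and its shuttles, 10 of 12 genes were tested, with 7 log2 changes above 0 and 3 below. The genes nearest to TET chemistry are Idh3a and Ogdh, whose enzymes make and consume α-ketoglutarate, Sdha, Sdhb and Fh1, which consume succinate and fumarate, and D2hgdh, which clears 2-hydroxyglutarate. D2hgdh (chromosome 1, 93823195 to 93853857) was well covered, with 2479 and 2909 scaled bases in KO, against 2649 and 3012 in WT. Idh3a had 795 and 1163 bases in KO, against 826 and 1026 in WT, and Sdhb had 1395 and 1312 in KO, against 1467 and 1057 in WT. All of these overlapped between genotypes. Ogdh had 3333 and 2607 bases in KO, against 2269 and 3234 in WT, with the extremes in the replicate 2 libraries.

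Fh1, singled out after its values were seen, had 1156 and 1069.8 bases in KO, against 1393 and 836 in WT, and its strongest peak lay about 1.5 kb upstream of the start in every library. The fold enrichment of that peak, the authors' own value, was 8.21 and 7.21 in KO, against 15.1 and 12.6 in WT. In KO it stood in the top 15.0% and 8.77% of its list, and in WT in the top 0.933% and 1.004%. Read pileups recovered at its summit, not scaled for read depth, were 161 and 106 in KO, against 145 and 159 in WT. In pileup the genotypes therefore overlapped, with the highest value in a KO library. Fold values of different libraries are not on a common scale, and no deposited differential region overlapped this peak. Sdha had an unusually high value in KO replicate 3, with 310.0 and 649 bases in KO, against 325 and 308 in WT. Aco1, the cytosolic aconitase and iron regulatory protein gene, had 1253 and 1884 bases in KO, against 1828 and 2283 in WT, and the aspartate aminotransferase gene Got2 had 961 and 751 in KO, against 962 and 414 in WT. Mdh2, the mitochondrial malate dehydrogenase gene, was the only gene of this group with both KO libraries (953 and 922) above both WT libraries (789 and 875).

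The mTOR kinase works in 2 complexes, marked by RAPTOR and RICTOR, and the TSC1 and TSC2 proteins restrain the first through the GTPase RHEB. Mtor (chromosome 4, 148448582 to 148557685) had 2757 and 2301 scaled bases in KO, against 3188 and 2719.6 in WT, with some overlap. Rptor (chromosome 11, 119602905 to 119899591), which encodes RAPTOR and is the longest member, had 16381 and 17222 bases in KO, against 17757 and 17728 in WT, over 51 peak regions. Both KO libraries lay below both WT libraries, by a log2 change of -0.08 (standard error 0.07, limma adjusted p = 1.0). Rictor had 2476 and 2413 bases in KO, against 2444 and 2238 in WT, so its genotypes overlapped.

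Tsc1 (chromosome 2, 28640993 to 28691172) had the smallest unadjusted limma p of the list, 0.0773. It had 2171 and 2541 bases in KO, above both WT values of 1858 and 1834, with a log2 change of 0.32 (standard error 0.15, limma adjusted p = 1.0). Its partner Tsc2 had 2462 and 2452 bases in KO, against 2608 and 2344 in WT. Tsc2 also held a peak with high fold enrichment, about 7.6 kb inside the gene, in the top 0.228% and 1.53% of the list in KO and in the top 0.158% and 0.335% in WT. Rheb (chromosome 5, 24802823 to 24842361) had 1510.1 and 803 bases in KO, below the 1548 and 1739 of WT, with a log2 change of -0.49 (standard error 0.29, limma adjusted p = 1.0). KO replicate 3 lacked peaks at 2 regions that had one in each other library. The log2 change was -0.11 without KO replicate 3 and -0.87 without KO replicate 2.

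Deptor (chromosome 15, 55112317 to 55259273), which encodes an mTOR inhibitor, had 7303 and 8219 bases in KO, against 7077 and 7135 in WT, a log2 change of 0.12 (standard error 0.10, limma adjusted p = 1.0). Both KO libraries were above both WT libraries, though the sign turned when peaks under 5-fold enrichment were left out (-0.02). Rps6ka1, an ERK-driven S6 kinase gene (chromosome 4, 133847290 to 133887797), had 3039 and 2683 bases in KO, against 3678 and 3174 in WT. Both KO libraries lay below both WT libraries. Its log2 change was -0.24 (standard error 0.14, limma adjusted p = 1.0). Rps6kb1, the gene of the S6 kinase that mTOR complex 1 activates (chromosome 11, 86498869 to 86544885), had 3212 and 2860.1 bases in KO, against 3519.6 and 3023 in WT. These overlapped, and its log2 change of -0.10 (standard error 0.14, limma adjusted p = 1.0) was 0.05 in the gene span alone. Eif4ebp1, which encodes the translation repressor 4E-BP1, followed library number like Ldha, with 963 and 316 bases in KO, against 975 and 349.8 in WT.

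Myc itself (chromosome 15, 61985341 to 61990361) had a single peak region inside the gene, with 498 and 353 scaled bases in KO, against 586 and 374 in WT. Mycn had 339 and 335 in KO, against 317 and 329.6 in WT. Max, the obligate partner of MYC, had 2847 and 2830.0 in KO, against 2952 and 2201 in WT. The genotypes overlapped at Myc and Max. At Mycn, which was too poorly covered to be tested, both KO libraries lay above both WT libraries by a narrow margin.

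The authors' deposited table of regions higher in WT (WT-higher) lists 16 in the windows of 13 members, of 24641 in all on the chromosomes used. That is 13 of the 42 genes with peaks (31.0%), where 28.3% of all genes with peaks hold at least 1. In the authors' deposited table of regions higher in KO (KO-higher), 0 lie at members, where 0.104% of genes with peaks hold 1. Counted by merged peak region, 15 of 294 (5.10%, 95% Wilson interval 3.12 to 8.25%, counting error only) overlapped a WT-higher region, against 7.26% over all genes. KO-higher regions overlapped 0 of the 294, which allows a share of up to 1.29% (upper Wilson bound), against 0.00806% over all genes. By role, the share was 5 of 83 for glycolysis, 1 of 28 for transporters, 1 of 43 for the TCA cycle and shuttles, 7 of 133 for the mTOR pathway and 1 of 7 for the MYC network. By gene, 6 of the 10 mTOR pathway genes (60%) held a WT-higher region, where 28.3% of all genes with peaks did. The 10 genes are long, with a median window of 52098.5 bases, against 29798 over all members and 21169 over all genes. Whether length played a part was not tested. The deposited calls carry no replicate values, so none of these counts could be tested.

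Peaks in every library overlapped 9 of the 16 WT-higher regions of the authors' deposited table. At 5 of those 9, the deposited fold enrichment of both WT peaks exceeded both KO peaks, and at the other 4 the genotypes overlapped. Fold values were compared as deposited, although their median over all peaks differed, at 5.10 and 4.38 in KO, against 5.51 and 4.89 in WT. Of all 16, peaks overlapped 11 and 9 in KO libraries and 15 and 11 in WT libraries. They were listed because WT exceeded KO, so these counts restate the authors' choice. Scores of the members' regions in the authors' deposited table ran from 3.74 to 11.0, with a median of 4.69, against 4.77 for all WT-higher regions, and the scale of the score is not stated.

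**Figure D4:**
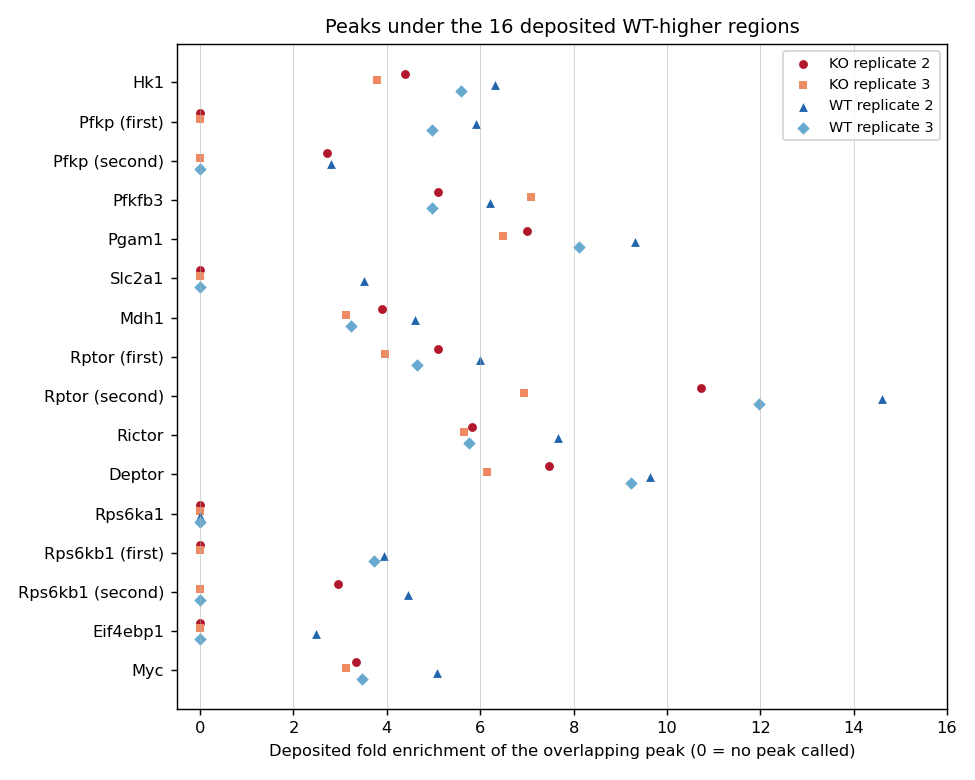
Deposited fold enrichment of the peak over each of the 16 WT-higher regions in the 2 KO and 2 WT libraries, where 0 means that no peak was called; at genes with a pair, the one with the lower coordinate is called first. WT replicate 2 is at or above every other library at 15 of the 16 regions, the exception being Pfkfb3, where KO replicate 3 is highest at 7.08. WT replicate 2 also has the highest median fold over all its peaks, 5.51, against 5.10 and 4.38 in KO and 4.89 in WT replicate 3.

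Slc2a1 had the highest score among members in the authors' deposited table, 11.0, at chromosome 4, 119116778 to 119117006, about 8.1 kb inside the gene. A peak was called there in WT replicate 2 alone, with 3.52-fold enrichment, so the other WT library did not differ from KO in having none. Pfkp had 2 WT-higher regions in the authors' deposited table. The one at 6621909 to 6622210 (score 6.54) lay under a peak in both WT libraries, 5.90-fold and 4.97-fold, and in neither KO library. The other, at 6636423 to 6636761 (score 4.56), had a peak in replicate 2 of both genotypes, 2.71-fold in KO and 2.80-fold in WT. The Pfkfb3 region in the authors' deposited table, at 11488226 to 11488867 (score 8.04), was the widest at 642 bases. The peaks over it had 5.10-fold and 7.08-fold enrichment in KO, against 6.21-fold and 4.97-fold in WT, so the genotypes overlapped at a region listed as higher in WT.

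In the mTOR pathway, Rptor had 2 WT-higher regions in the authors' deposited table, at 119640823 to 119641080 (score 4.74) and 119646798 to 119647128 (score 3.97). Over the one with the higher coordinate, fold enrichment was 10.7 and 6.94 in KO, against 14.6 and 11.98 in WT. Both WT peaks exceeded both KO peaks in fold over the local background. The read pileups recovered there, not scaled for read depth, were 157 and 95 in KO, against 140 and 151 in WT, and overlapped. Rps6kb1 also had 2 in the authors' deposited table. That at 86497942 to 86498218 (score 5.05) lies past the end of the gene and inside its neighbor Rnft1, with a peak in both WT libraries, 3.93-fold and 3.72-fold, and in neither KO library. That at 86519892 to 86520102 (score 6.45) had a peak in replicate 2 of both genotypes, 2.95-fold in KO and 4.45-fold in WT. Deptor, Rictor, Rps6ka1 and Eif4ebp1 had 1 each. At the Deptor region, peaks reached 7.47-fold and 6.15-fold in KO, against 9.63-fold and 9.22-fold in WT. Their pileups, not scaled for read depth, were 95 and 72 in KO, against 92 and 116 in WT, and overlapped. Folds at the Rictor region also overlapped, at 5.82 and 5.65 in KO, against 7.66 and 5.75 in WT. The Eif4ebp1 region had a peak in WT replicate 2 alone, 2.48-fold, and the Rps6ka1 region overlapped no peak of any library.

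The Myc region in the authors' deposited table, at chromosome 15, 61989548 to 61989758 (score 4.85), lay under the gene's single peak. Fold enrichment there was 3.35 and 3.12 in KO, against 5.07 and 3.47 in WT. Both WT peaks were above both KO peaks, WT replicate 3 only just. Hk1, Pgam1 and Mdh1 had 1 region each. The Pgam1 region lay 1.5 kb upstream of the start, with 7.001-fold and 6.49-fold enrichment in KO, against 9.32-fold and 8.12-fold in WT. Mdh1, the cytosolic malate dehydrogenase gene, had 3.90-fold and 3.12-fold in KO, against 4.61-fold and 3.23-fold in WT. Pileups at the Pgam1 region, not scaled for read depth, were 89 and 76 in KO, against 89 and 102 in WT, and did not separate the genotypes. At Myc they were 41 and 36 in KO, below the 48 and 43 of WT. Hk1 had 54 and 44 in KO, below the 60 and 70 of WT.

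Of the 294 merged regions of these genes, 153 (52.0%) had a peak in every library, against 58.0% over all genes. That share was 41.7% when peaks under 5-fold enrichment were left out, against 46.6% over all genes. Peaks in both KO libraries and no WT library occurred at 3 regions (1.02%, against 1.26%), and peaks in both WT libraries and no KO library at 9 (3.06%, against 2.24%). The 3 KO regions were in Pfkm, Pfkp and Rps6kb1. The 9 WT regions comprised 3 at Rptor and 1 each at Gpi1, Pfkp, Pfkfb3, Rps6ka1, Rps6kb1 and Slc1a5, and 2 of the 9, at Pfkp and Rps6kb1, overlapped a deposited WT-higher region. Pfkp and Rps6kb1 thus held regions of both kinds.

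The other genes of these pathways were read from a list of 98, also chosen by name. In limma 57 were tested, 28 with a log2 change above 0 and 29 below, and 0 had an adjusted p under 0.05. An unadjusted p under 0.05 occurred for 3 of the 57 (5.26%), against 4.22% of all genes. In limma these were Prr5 (log2 change -0.62, standard error 0.16), Slc38a1 (-0.47, standard error 0.12) and the pyruvate carboxylase gene Pcx (0.40, standard error 0.11), and none passed after adjustment. WT-higher regions of the authors' deposited table occurred at 17 of the 86 genes with peaks (19.8%, against 28.3%), 37 regions in all, and KO-higher regions at 0. Counted by merged peak region, 35 of 454 (7.71%) overlapped a WT-higher region, against 7.26% over all genes. The amino acid transporter gene Slc38a1 alone had 10 WT-higher regions, over 8 of its 31 merged regions. Prr5 and Prr5l, which encode RICTOR-binding proteins, and Suclg2, a succinyl-CoA ligase subunit gene, had 3 each.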

How the data were processed

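The submitters' processing notes name the aligner BWA 0.7.12-r1039, the peak caller MACS2 2.1.0.20151222 and the build GRCm38.p3, without settings. The authors deposited 1 peak list per immunoprecipitated library, not pooled, with a fold enrichment (a ratio at the summit over the caller's local background), −log10 p and −log10 q, and a score, per peak. Tables of differential regions, deposited by the authors, carry a score whose scale, caller and compared libraries are not stated; per the file headers they are enriched in KO or in WT.

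Read depth per library is unknown. A Poisson model recovers whole pileups from the deposited fold and p-value of at least 99.9974% of peaks (within 0.001 of −log10 p), with a most frequent local background of 11.6 and 10.9 reads in KO and 8.66 and 11.7 in WT.

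Peaks on autosomes, X and Y were used. Gene spans were RefSeq's for GRCm38.p6, without exons, so exons and introns were not told apart; overlapping genes can share peaks. Coverage was tested with limma 3.58.1 (trend, robust; R 4.3.3), with Benjamini-Hochberg adjustment over all genes, and checked on simulated data. Fold changes on the log2(bases + 200) scale understate those of poorly covered genes, and scaling removes a change shared by all genes. Where all libraries have a peak, coverage does not register its height. Touching peaks of any library were joined into merged regions. The table of start sites matched 37 of 44 members.

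The members and lists were chosen with earlier results of these data known. Named in full are members with at least 2 WT-higher regions, the 4 tested members with the smallest p in each direction and those without peaks; of other pathway genes, those with at least 3 WT-higher regions. Others singled out were chosen after their values were seen. Alternatives are given in the closing section.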

Additional observations from a re-analysis of the deposited data

How the results depend on the processing

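Calls in limma stayed at 0 of all genes under each of 14 alternatives, with the smallest adjusted p at 0.0832 (without KO replicate 2, where 1150 genes had an unadjusted p under 0.05, against 591 with all 4 libraries). Nothing shows that the numbers 2 and 3 pair libraries: the correlation of their deviations from the genotype means was 0.09 over genes. With the number as a replicate block, 0 genes passed and 924 had an unadjusted p under 0.05.

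The median log2 change of members was -0.070 without scaling, where that of all genes was -0.10; leaving out 1 library in turn gave -0.080 to 0.055. Members with both KO libraries below both WT libraries numbered 3 of 20 tested with peaks of at least 5-fold enrichment (13.1% of all genes) and 4 of 41 by number of summits (16.9% of all genes). With 1 library left out they numbered 10 to 17 of 34 to 36, where 29.9% to 39.4% of all genes met the criterion, which is easier to meet with 3 libraries. Of 135 values for 10 named members, 7 turned sign, none past the threshold: with peaks of at least 5-fold enrichment Pfkm (-1.48), Pfkp (-0.70), Deptor (-0.025) and Pfkfb3 (0.071); Rps6kb1 in the gene span alone (0.053) and without WT replicate 2 (0.00340, with -0.203 the lowest value when 1 library was left out); and Pfkp without WT replicate 3 (-0.00870, with 0.582 the highest). Leaving out 1 library also moved by over 1.5 times Pfkm (0.155), Pfkfb3 (-0.093) and Rps6ka1 (-0.143) without WT replicate 2, Rptor (-0.042), Deptor (0.205) and Rps6kb1 (-0.178) without KO replicate 2, and Deptor (0.038), Rps6ka1 (-0.160) and Rps6kb1 (-0.021) without KO replicate 3.

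With deposited scores of at least 5, an alternative chosen after seeing the data, 5 members and 2.04% of their regions had a WT-higher region (all genes 15.8% and 3.13%). Of the other pathway genes, 11 did, and 4.85% of their regions. The 5-fold cutoff kept 100175 of 279546 peaks in KO replicate 3, the fewest of any library. With peaks of at least 5-fold enrichment, 48 of 115 regions (41.7%, against 46.6% over all genes) had a peak in all libraries. That share was also below 50% with equal numbers of peaks (49.6%, against 57.7%) and with peaks over at least 50% of a region (49.3%, against 55.2%). Start windows with a peak of at least 5-fold enrichment numbered 2 (4.06% of all windows), and 3 were covered over at least 50% of their bases in some library (4.44% of all windows). The share of regions with a WT-higher region stayed below that of all genes under all 5 alternatives. These reuse the same peaks and deposited calls, so they are not separate support. In the main setting the members' Wilson interval, 3.12 to 8.25%, held the value of all genes, 7.26%. The same was true under each alternative. Read depth is unknown, so a peak missing from a list is not shown to be absent from the cells; 18.4% of the members' regions had a peak in 1 library only.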
